A study of Arabidopsis thaliana with 39 samples.

Results

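The genes described here are Aux/IAA repressor genes of Arabidopsis thaliana and GH3 genes of the subfamily that acts on auxin. They were chosen by locus from a list of 34, made up of 27 Aux/IAA and 7 GH3 genes, and not by their values. The list does not hold every gene of either family, and IAA15, IAA32 and GH3.9 are not on it. The table of normalized expression values holds 27 of the 34 among its 20001 genes, namely 21 Aux/IAA and 6 GH3 genes. IAA5, IAA6, IAA20, IAA31, IAA33, IAA34 and GH3.4 had no value and were not analysed here. All 27 passed the filter on low values, as did every gene of the table. Every gene of the table reached at least 4.16 in its highest library. A member low in most groups may thus be in the table only through the group where it was high. Counts of members include any such gene.

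Auxin is sensed by F-box receptors of the TIR1/AFB family, which bind Aux/IAA proteins in its presence and mark them for degradation. While present, an Aux/IAA protein binds auxin response factors (ARFs) and recruits TOPLESS corepressors, which keeps ARF target genes off. Many Aux/IAA genes are ARF targets themselves, and so are several GH3 genes, whose enzymes join the auxin indole-3-acetic acid to amino acids and so lower the free hormone. Both families are therefore widely read as indicators of auxin response in whole seedlings.

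The study measured RNA of whole Col-0 seedlings, 14 days old, grown in liquid culture under continuous light at 23 °C with 1% sucrose in the medium, after 2 days of cold. Seedlings received 20 mM urea, 20 mM of the amino acid L-glutamate (L-Glu) or 1 mM of the defence hormone salicylic acid (SA) and were sampled after 6, 12, 24 and 48 h, and a mock group was taken at 0 h. All 13 groups share the wild-type Col-0 background and hold 3 libraries each, 39 in all. Urea matches L-Glu in dose and time, so it is the reference for most comparisons. Mock exists at 0 h only, and treatment and time cannot be told apart in any comparison with it. Nothing in the labels states that the 3 libraries of a group are independent cultures. The p-values therefore reflect the spread among these libraries, which may be technical.

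Depth is unknown. Sums of the values over all genes ran from 2445640 to 5886170 per library, highest in L-Glu at 24 h, while library medians lay between 46.4 and 56.9. L-Glu 6 h replicate 2 stood apart, with a root mean square deviation of 0.845 from its group mean over the 27 genes on the log2 scale, against 0.186 to 0.638 in the 38 other libraries. Next came urea 48 h replicate 3 at 0.638, L-Glu 6 h replicate 1 at 0.572 and L-Glu 48 h replicate 2 at 0.541. Counts of calls at 6 and 48 h are given without each of these 4 libraries, with the genes whose calls between L-Glu and urea were lost or gained. Levels are not compared between genes, because the values are not stated to be per length.

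The comparison of L-Glu with urea asked which of these genes respond to L-Glu beyond any response to urea given at the same molar dose. A group of 9 genes rose strongly in L-Glu, namely IAA1, IAA2, IAA3, IAA19, IAA29, IAA30, GH3.1, GH3.2 and GH3.3. Averaged over the 4 times, their values were higher than in urea by 1.98 to 4.97 on the log2(value + 1) scale. The averaged differences of the other members lay between -1.26 and 0.47. In all, 13 of the 27 genes were called higher, that is with a limma adjusted p under 0.05, against 33% of all genes tested. A further 8 were called lower, against 36.4% of all genes. The median log2 fold change of the 27 was 0.22, and that of all genes was -0.05. When every library was instead brought to the same total, the split became 9 higher and 13 lower, and with quantile normalization 10 higher and 12 lower. The 9 strong genes kept their direction and their call under both, whereas IAA16, IAA18, IAA28 and GH3.5, all called higher as deposited, changed sign with the same total, IAA16 also with quantile normalization.

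**Figure D1:**
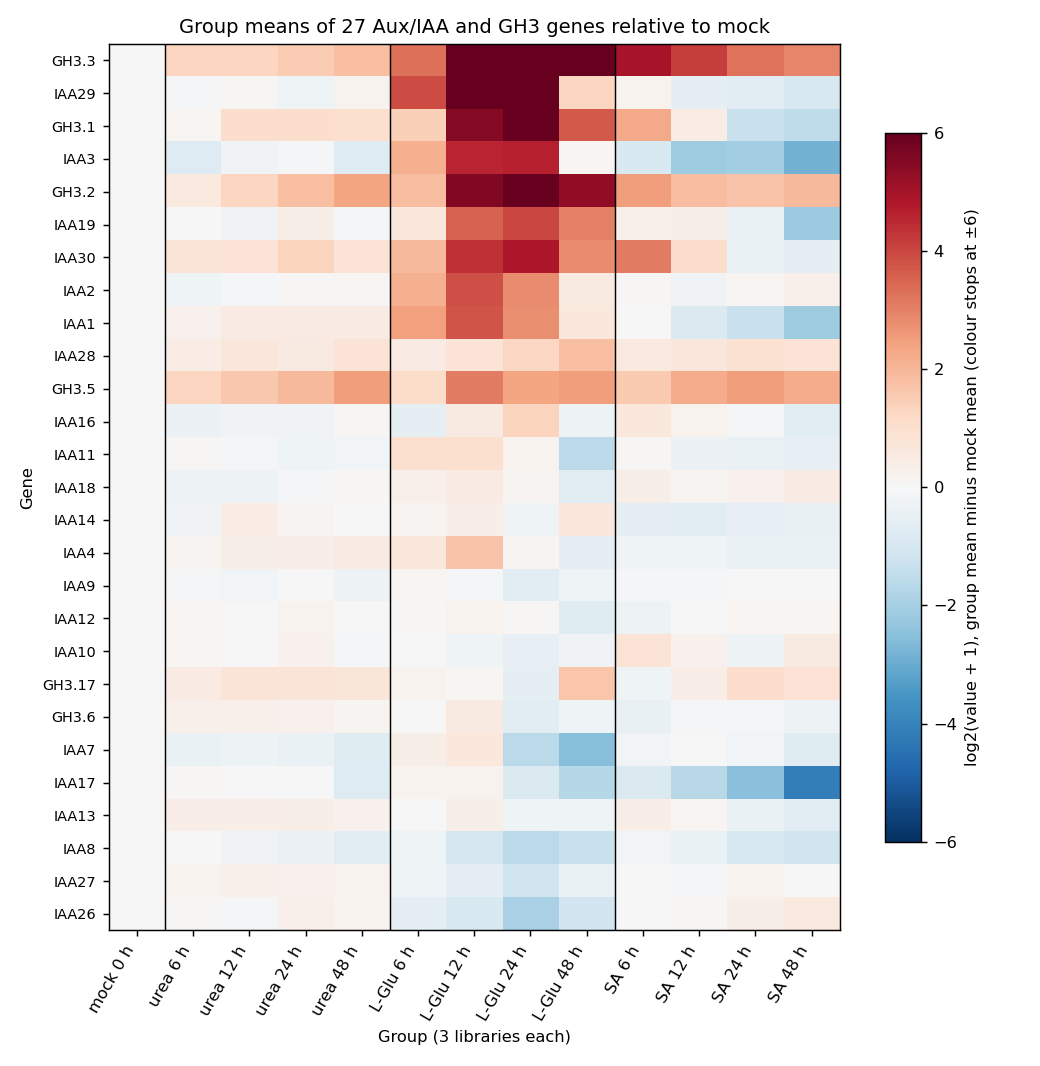
Group means of the 27 Aux/IAA and GH3 genes on the log2(value + 1) scale, minus the mean of the mock group, with genes in rows and the 13 groups in columns, 3 libraries each. Red is higher and blue lower than mock, and the colour stops at 6. The strongest red lies in L-Glu in the top 9 rows, at 12 and 24 h and for GH3.3 also at 48 h. The strongest blue is IAA17 in SA at 48 h.

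Among the repressors, IAA29 (AT4G32280) was near 0 without L-Glu and high with it. This Aux/IAA gene is known as a target of phytochrome-interacting factors in shade and warmth. Its values were 62.2, 5.85 and 59.1 in L-Glu at 6 h, 481, 241 and 428 at 12 h, 254, 298 and 214 at 24 h, and 5.27, 0.372 and 11.5 at 48 h. In the 15 urea and mock libraries it ranged from 0 to 3.297 with a median of 1.16. All L-Glu libraries at 6, 12 and 24 h lay above that range, while at 48 h the groups overlapped. That range lies below 4.16, which every gene of the table reached in its highest library. IAA29 may thus be in the table only through its L-Glu libraries, which limits what its calls against urea show. The difference from urea was 3.99 ± 0.726 (SE, limma adjusted p = 0.000179) at 6 h and 7.49 ± 0.726 (adjusted p = 1.54e-10) at 12 h. At 48 h it was 1.08 ± 0.726, which did not pass the test (adjusted p = 0.218).

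IAA3 (AT1G04240), also called SHY2 and known for setting the size of the root meristem, followed the same course. Its values were 264, 42.8 and 345 at 6 h, 933, 487 and 1339 at 12 h, 880, 841 and 1008 at 24 h, and 49.3, 20.3 and 55.5 at 48 h in L-Glu. Urea and mock libraries lay between 14.2 and 45.6 with a median of 25.0. At 12 and 24 h every L-Glu library was above every urea and mock library, and at 6 h replicate 2 was not. The difference from urea was 4.78 ± 0.492 at 12 h (adjusted p = 5.8e-10) and 4.74 ± 0.492 at 24 h (adjusted p = 2.85e-10), and at 48 h it was 0.87 ± 0.492 (adjusted p = 0.139).

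IAA1 (AT4G14560) and IAA2 (AT3G23030) completed this early group. IAA2 reached 818, 227 and 954 at 6 h and 1908, 1492 and 2196 at 12 h in L-Glu, against 80.0 to 214 in urea and mock. IAA2 values of 138, 237 and 195 at L-Glu 48 h overlapped that range again. IAA1 reached 158, 119 and 154 at 12 h, against 5.68 to 31.0 in urea and mock, and was back at 17.6, 16.3 and 12.4 at 48 h. By the mean of the untransformed values, the highest group of all 4 genes was L-Glu 12 h, and by the mean of the log2 values that of IAA3 was L-Glu 24 h.

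IAA19 (AT3G15540), known as MSG2 and required for bending of the hypocotyl, and IAA30 rose later and were still called higher at 48 h. IAA19 had 4.77, 6.63 and 9.46 in L-Glu at 6 h, within reach of the 1.92 to 9.55 in urea and mock. It then had 57.9, 35.1 and 97.5 at 12 h, 84.5, 59.0 and 101 at 24 h, and 37.1, 50.4 and 33.1 at 48 h, all above that range. The difference of IAA19 from urea grew from 0.62 ± 0.467 at 6 h (adjusted p = 0.471) to 3.095 ± 0.467 at 48 h (adjusted p = 8.07e-07). IAA30 (AT3G62100), from a clade whose proteins lack the usual degradation signal, was at 45.9, 24.9 and 37.4 at 12 h and 7.04, 12.4 and 15.8 at 48 h, against 0.0856 to 8.15 in urea and mock. It was called higher from 12 h on. Its mean of log2(value + 1) in L-Glu fell from 5.63 at 24 h to 3.61 at 48 h, where replicate 1 lay within the urea and mock range.

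Among the GH3 genes, GH3.1, GH3.2 and GH3.3 rose. GH3.3 (AT2G23170), which forms auxin conjugates with aspartate and other amino acids and acts in adventitious rooting, had 320, 31.9 and 179 in L-Glu at 6 h and 1806, 1585 and 2107 at 12 h. It peaked at 6040, 5577 and 7612 at 24 h and was still at 1015, 991 and 1154 at 48 h. In urea its values fell into unequal replicates, with 15.1 to 24.4 in replicates 1 and 2 at all times and 70.0, 94.0, 91.7 and 224 in replicate 3 at 6, 12, 24 and 48 h. Every L-Glu library from 12 h on lay above every urea library, while at 6 h they overlapped. The average difference from urea was 4.97 ± 0.35 (adjusted p = 8.88e-15), and without replicate 3 of every group it was 5.65. At 6 h GH3.3 missed the threshold, at 2.00 ± 0.7 (adjusted p = 0.059). It passed without L-Glu 6 h replicate 2, at 2.96 ± 0.693 (adjusted p = 0.00229), and not without replicate 1, at 1.31 ± 0.746 (adjusted p = 0.354).

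GH3.1 (AT2G14960) and GH3.2 (AT4G37390) also stood above urea from 12 h on and were highest at 24 h. GH3.1 had 15.4, 5.80 and 3.01 at 6 h, 126, 76.6 and 214 at 12 h, 395, 260 and 483 at 24 h, and 33.7, 39.3 and 32.0 at 48 h in L-Glu. Urea and mock ranged from 0.377 to 7.28, so the libraries from 12 h on stood clear of them. GH3.2 had 157, 18.4 and 87.3 at 6 h, 798, 914 and 826 at 12 h, 1659, 1278 and 2135 at 24 h, and 707, 647 and 813 at 48 h. Its urea and mock values ranged from 15.5 to 174, and again every L-Glu library from 12 h on was higher. Averaged over the times, GH3.1 was higher than in urea by 3.61 ± 0.246 (adjusted p = 3.89e-15) and GH3.2 by 3.31 ± 0.253 (adjusted p = 8.15e-14).

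**Figure D2:**
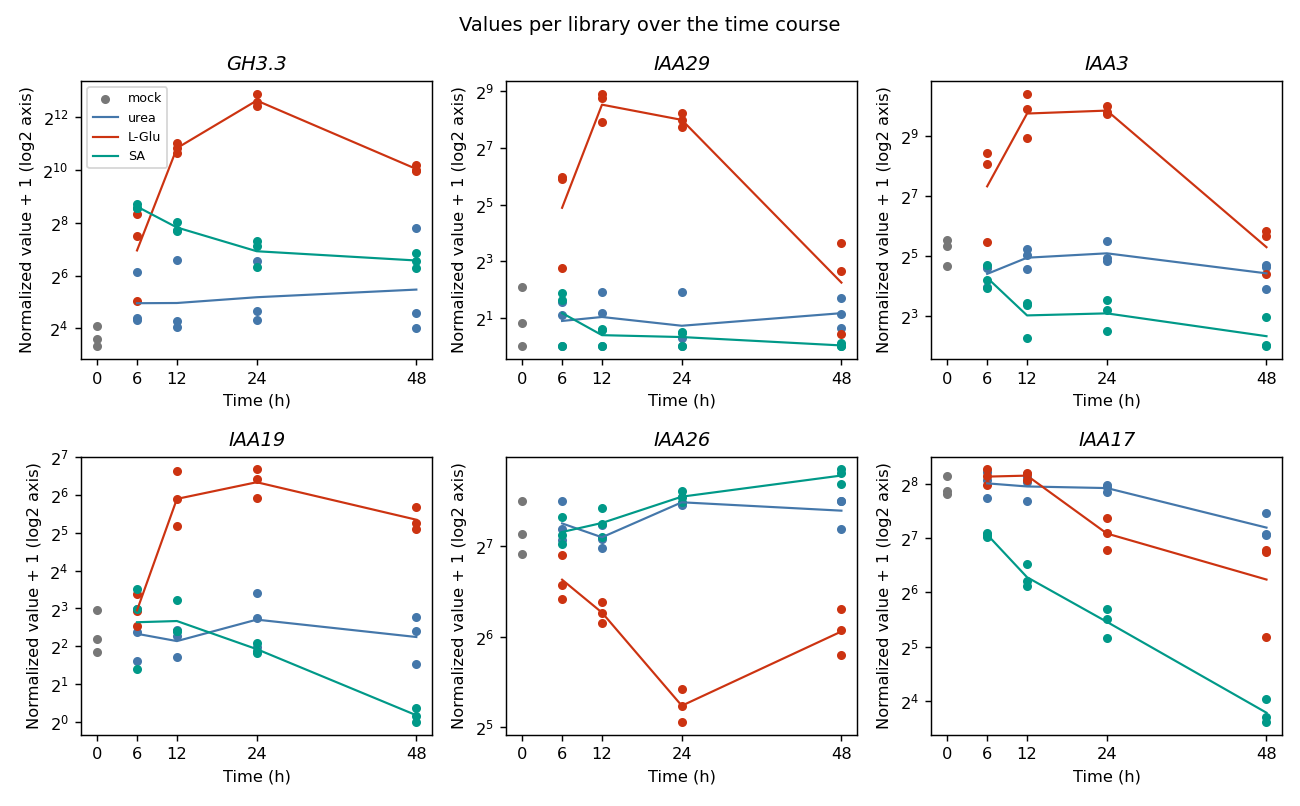
Normalized value + 1 on a log2 axis for 6 genes against time in hours, with 1 point per library and lines through the group means of the log2 values. GH3.3 in L-Glu peaked at 24 h with 5577 to 7612, IAA29 in L-Glu had 241 to 481 at 12 h and 0.372 to 11.5 at 48 h, and IAA17 in SA ended at 11.2 to 15.3.

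The remaining GH3 genes went their own ways. GH3.5 acts on salicylic acid as well as auxin in Arabidopsis, and GH3.6, known as DFL1, restrains hypocotyl growth. GH3.5 was called higher in L-Glu at 12 h, with 434, 246 and 362 against 113, 89.0 and 185 in urea, a difference of 1.45 ± 0.309 (adjusted p = 0.000207). At the other times it was not called, and its averaged difference of 0.42 ± 0.155 lost its call with quantile normalization and without replicate 1 of every group, and was -0.08 with the same total. GH3.6 was called lower at 24 h, at 72.0, 79.8 and 94.4 against 147, 131 and 193, a difference of -0.92 ± 0.234 (adjusted p = 0.00107). The averaged calls of GH3.6 and GH3.17 were lost without replicate 3 of every group.

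GH3.17 (AT1G28130), whose enzyme prefers glutamate as the amino acid joined to auxin, moved in opposite directions within a day. At L-Glu 24 h it had 58.3, 32.0 and 78.4 against 114, 133 and 160 in urea, a difference of -1.33 ± 0.228 (adjusted p = 5.36e-06). At 48 h it had 316, 316 and 148 against 122, 121 and 146, and the difference was 0.92 ± 0.228 (adjusted p = 0.000871). The change between these times was 2.26 ± 0.322 (adjusted p = 5.63e-06). The call at 48 h was lost with the same total.

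A set of repressor genes was lower in L-Glu. IAA26 (AT3G16500) and IAA27 (AT4G29080), also called PAP1 and PAP2, belong to the Aux/IAA proteins first found as phytochrome-associated proteins. IAA26 had 84.3, 119 and 93.8 in L-Glu at 6 h, 75.9, 70.2 and 82.3 at 12 h, 36.5, 32.2 and 42.0 at 24 h, and 66.4, 54.5 and 78.0 at 48 h. All of these lay below the 15 urea and mock libraries, which ranged from 120.1 to 185 with a median of 150.0. Its difference from urea was farthest from 0 at 24 h, at -2.25 ± 0.155 (adjusted p = 1.18e-14), and was called at all 4 times, though at 6 h not without L-Glu 6 h replicate 1, at -0.51 (adjusted p = 0.0627).

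IAA27 fell to 32.3, 37.7 and 33.9 in L-Glu at 24 h, against 79.2, 87.9 and 124 in urea, a difference of -1.44 ± 0.24 (adjusted p = 3.79e-06). Its values at 6 h, 57.2, 67.7 and 76.5, overlapped the urea and mock range of 71.2 to 124. At 12 h they were 61.1, 51.0 and 52.6, below that range, and at 48 h 84.2, 31.8 and 82.2, where replicates 1 and 3 were within it. IAA8 fell to 159, 132 and 122 at 24 h, against 329, 299 and 362 in urea, a difference of -1.26 ± 0.136 (adjusted p = 6.59e-10). At 6 h IAA8 had 337, 383 and 333 against 389, 426 and 426, at 12 h 213, 203 and 222 against 398, 350 and 359, and at 48 h 190, 143 and 177 against 232, 248 and 325. The groups did not overlap at any time, though the difference at 6 h was not called (adjusted p = 0.305).

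IAA13 and IAA17 were the weakest of the 5 lowest genes. IAA13 had 43.7, 27.4 and 36.9, then 70.8, 29.4 and 47.9, then 38.3, 21.2 and 33.4, then 30.3, 33.98 and 25.997 in L-Glu at the 4 times in order, against 33.1 to 69.0 over all urea libraries. It was called at no single time, and its average of -0.39 ± 0.135 (adjusted p = 0.0113) lost its call without replicate 2 and without replicate 3 of every group. IAA17 (AT1G04250), known as AXR3, had 252, 283 and 307 at 6 h and 269, 293 and 289 at 12 h, and was not called at either time. It was then called lower, at 165, 135 and 109 at 24 h against 252, 229 and 244, and at 107, 35.2 and 109 at 48 h against 132, 133 and 175. Its averaged difference was -0.37 ± 0.122 (adjusted p = 0.00807), which missed the threshold without replicate 3 of every group.

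Some repressors reversed during the treatment. IAA7 (AT3G23050), known as AXR2, was above every urea and mock library in 5 of the 6 L-Glu libraries at 6 and 12 h, with 412, 279 and 409, then 453, 457 and 417, against 151 to 296. At 24 and 48 h its L-Glu values of 95.3, 143 and 60.5, then 45.9, 47.4 and 49.6, were below that range. The difference from urea went from 0.73 ± 0.171 at 6 h (adjusted p = 0.00295) to -1.84 ± 0.171 at 48 h (adjusted p = 2.72e-11). IAA11 went from 0.88 at 6 h and 1.07 at 12 h to -1.39 at 48 h, each called. IAA18 went from 0.61 and 0.81 at the same early times to -0.83 at 48 h, also called each time, and IAA4 from 1.34 at 12 h to -1.09 at 48 h.

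The rest of the Aux/IAA genes showed smaller or single-time differences. IAA28, which limits lateral root formation, was called higher in L-Glu at 24 h, by 0.68, and at 48 h, by 0.98, with 173, 245 and 215 against 113, 107 and 97.1 in urea at 48 h. With the same total, its difference at 24 h changed sign. IAA16 was called higher at 12 h and at 24 h, where it had 1499, 1855 and 1667 against 550, 593 and 582, but with quantile normalization its difference changed sign at 12 h and was not called at 24 h. IAA9 was called lower at 24 h only, at -0.68, IAA10 at 24 h only, at -0.77, and IAA12, known as BDL, at 48 h only, at -0.77. IAA14, known as SLR and a repressor of lateral root founding, was called at no time.

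The members called in L-Glu against urea changed with time. At 6 h, 7 were called higher, against 8.36% of all genes, and 1 lower, against 3.15%. The 7 were Aux/IAA genes, as are 21 of the 27 members. Without L-Glu 6 h replicate 2 the count called rose from 8 to 10. IAA29 was then higher by 5.05 ± 0.711 and IAA3 by 3.84 ± 0.422, and GH3.2 at 2.16 ± 0.458 and GH3.3 at 2.96 ± 0.693 gained a call (limma adjusted p = 0.000785 and 0.00229). Without L-Glu 6 h replicate 1 the count was 6. IAA29 was then higher by 3.44 ± 0.797 and IAA3 by 2.54 ± 0.54, and IAA1 at 1.85 ± 0.598 (adjusted p = 0.054) and IAA26 lost their calls. Without replicate 1 of every group the count was 3, and without replicate 3 of every group 5. At 12 h, 15 were higher, against 25.8% of all genes, and 4 lower, against 21.9%, and the median of the members was 0.81 where that of all genes was -0.04. At 24 h, 11 were higher, against 29.3%, and 9 lower, against 31.3%. At 48 h, 7 were higher, against 25.2%, and 9 lower, against 27.6%, and without L-Glu 48 h replicate 2 these were 9 and 8. IAA29 at 1.97 (adjusted p = 0.0282) and IAA3 at 1.31 (adjusted p = 0.0409) then gained a call. IAA16 gained one too, at -0.45, while IAA17 at -0.43 (adjusted p = 0.0514) and IAA27 at -0.14 lost theirs. Without urea 48 h replicate 3 the counts were again 7 and 9, with IAA16 at -0.43 gained and IAA27 at -0.50 lost. With the same total the higher and lower counts were 14 and 5 at 12 h, 10 and 15 at 24 h, and 6 and 13 at 48 h, while the median of all genes moved from -0.10 to -1.10 at 24 h. The share called lower at 24 and 48 h was thus near that of all genes for the deposited values, and the share called higher at 12 h was above it.

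The group with the highest mean of the untransformed values was found for each gene. For 21 of the 27 genes the highest of the 13 group means was an L-Glu group, which was so for 47.5% of all genes. For 11 it was L-Glu 12 h, which held the highest mean of 9.56% of all genes, for 6 L-Glu 24 h (19.2% of all genes) and for 3 L-Glu 48 h (14.4%). GH3.1, GH3.2, GH3.3, IAA16, IAA19 and IAA30 made up the 24 h set, and IAA14, IAA28 and GH3.17 the 48 h set. By the mean of the log2 values IAA3 moved to the 24 h set, which made the counts 10, 7 and 3.

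Whether the response to L-Glu differed between 6 and 48 h was tested directly, as the change in its difference from urea. It was called higher for 4 members, against 16.4% of all genes, and lower for 10, against 19.1%. GH3.3 and IAA19 had the highest changes, 2.57 ± 0.99 (adjusted p = 0.0407) and 2.48 ± 0.66 (adjusted p = 0.00325), and IAA29 and IAA7 the lowest, -2.91 ± 1.03 (adjusted p = 0.025) and -2.57 ± 0.241 (adjusted p = 1.28e-10). All 10 genes with a lower change were Aux/IAA genes, as are 21 of the 27 members. The count fell from 14 to 8 when only the compared groups were fitted or without replicate 3 of every group, and to 9 without replicate 2 of every group, and it was 13 without L-Glu 6 h replicate 2 and 10 without L-Glu 48 h replicate 2. The call of GH3.3 was lost without replicate 1 or 2 of every group and under 5 other settings, that of IAA29 without replicate 1 or 3 and under 2 other settings, and that of IAA19 without replicate 2, while IAA7 kept its call. From 24 to 48 h, a comparison added after the data were seen, 4 changes were called higher, against 8.15% of all genes, and 9 lower, against 14.4%. The lower ones were led by IAA29 at -6.18 ± 1.03 and IAA3 at -3.87 ± 0.696. Without replicate 1 of every group the count of 13 was 8, and without urea 48 h replicate 3 it was 12. With the same total the higher and lower counts were 1 and 14 from 6 to 48 h and 9 and 7 from 24 to 48 h.

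Organ markers moved with these times. The summed value of 9 root markers was 2562 to 4666 in urea, 4557 to 8927 in L-Glu at 24 h and 16316 to 20868 at 48 h. Most of that sum was BGLU23, a beta-glucosidase of root endoplasmic reticulum bodies, with 4324 to 8619 at L-Glu 24 h and 16072 to 20461 at 48 h. Of the 9, limma called BGLU23 higher and SHR lower at 24 h, BGLU23 and EXPA7 higher and PLT1 lower at 48 h, and BGLU23 alone in the change from 24 to 48 h. That of 9 green shoot markers was 51402 to 116938 in urea, 8999 to 12738 in L-Glu at 24 h and 2945 to 3426 at 48 h. In L-Glu against urea, 2 of the 9 root markers were called higher and 5 lower, and 8 of the 9 shoot markers lower, on average over the times. No marker of either list was at 0 in an L-Glu library. In whole seedlings, fewer cells of a type and less RNA per cell cannot be told apart, and the part of organ makeup in the results was not tested at any time. Root sums in L-Glu were 3641 to 4840 at 6 h, against 3580 to 4666 in urea. They were 3432 to 3732 at 12 h, against 3090 to 3750. Shoot sums in L-Glu were already below urea, at 82345 to 96046 against 105357 to 116938 at 6 h. At 12 h they were 55344 to 61230 against 98175 to 105730. At an unadjusted limma p under 0.05, 3 of the 9 shoot markers were lower at 6 h and 7 at 12 h, and 0 were higher.

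The comparison of SA with urea asked how the same genes respond to the defence hormone, which was given at a lower dose. IAA17 was called lower at all 4 times, IAA3 from 12 h on, and IAA1 and GH3.1 at 24 and 48 h. GH3.3 had the highest averaged difference. Over the 4 times, 3 members were called higher, against 28.2% of all genes, and 9 lower, against 29.2%, with a median of -0.16 for the members and -0.01 for all genes. With the same total the split was 2 higher and 11 lower.

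IAA17 had 133, 129 and 136 in SA at 6 h, 72.6, 68.3 and 90.7 at 12 h, 44.7, 50.6 and 34.8 at 24 h, and 11.2, 15.3 and 12.06 at 48 h. Of these 12 values, the 2 of replicates 1 and 3 at 6 h exceeded the lowest of the urea and mock libraries, 132, and the urea libraries of the same time were all higher at each time. The difference grew from -0.94 ± 0.244 (adjusted p = 0.00318) at 6 h to -3.41 ± 0.244 (adjusted p = 6.93e-13) at 48 h. IAA1 had 4.39, 11.5 and 15.6 in SA at 6 h, 9.59, 5.98 and 1.67 at 12 h, 1.74, 7.05 and 2.24 at 24 h, and 1.68, 3.33 and 0.179 at 48 h. At 48 h all 3 were below the lowest urea and mock value of 5.68, a difference from urea of -2.65 ± 0.541 (adjusted p = 0.000268). IAA3 had 17.3, 25.1 and 14.3, then 9.88, 9.43 and 3.81, then 10.7, 8.35 and 4.74, then 6.82, 3.003 and 3.16 in SA at the 4 times in order. From 12 h on every IAA3 value was below every urea and mock library, and its averaged difference was -1.53 ± 0.246 (adjusted p = 2.35e-06).

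GH3.3 had 375, 380 and 418 in SA at 6 h, 213, 206 and 260 at 12 h, 79.3, 138 and 158 at 24 h, and 77.7, 92.5 and 116 at 48 h. Its SA values were above urea of the same time at 6 and 12 h, and at 24 and 48 h the high urea replicate 3 overlapped them. The difference went from 3.66 ± 0.7 at 6 h (adjusted p = 0.000119) to 1.10 ± 0.7 at 48 h (adjusted p = 0.257). GH3.1, GH3.2 and IAA30 were also called higher at 6 h, by 2.15, 1.96 and 2.27. GH3.1 then went from 17.4, 11.6 and 10.08 at 6 h through 8.57, 1.42 and 1.59 at 12 h to 0, 0.369 and 0 at 24 h. At 48 h GH3.1 was listed at 0 in all 3 SA libraries, so no fold is given there, and its averaged call was lost with a pseudocount of 4, with quantile normalization and without replicate 3 of every group.

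IAA18 and IAA16 were the other members called higher in SA over the 4 times. IAA18 (AT1G51950), which acts in root and apical patterning, had 201, 189 and 198 at 6 h, 185, 154 and 182 at 12 h, 179, 181 and 203 at 24 h, and 232, 206 and 230 at 48 h. Its averaged difference from urea was 0.48 ± 0.0708 (adjusted p = 6.05e-07), and at 6, 24 and 48 h all SA libraries were above all urea libraries of the same time. IAA16 had 1006, 988 and 1174 at 6 h, 854, 678 and 841 at 12 h, 638, 601 and 693 at 24 h, and 354, 451 and 441 at 48 h. IAA16 was thus above all urea libraries of its time in each of the first 3 times and below them at 48 h. Its average of 0.20 ± 0.08 (adjusted p = 0.0293) was not called with quantile normalization, with the same total, or without replicate 1 or 3 of every group.

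At 6 h in SA, 6 members were called higher, against 15.9% of all genes, and 3 lower, against 13.5%. At 12 h, 3 were higher, against 16.2%, and 3 lower, against 15.6%, and without replicate 3 of every group the count of 6 was 2. At 24 h, IAA18 was the 1 gene called higher, against 15.1%, and 8 were lower, against 15.5%. That count of 9 was 5 without SA 24 h replicate 3, 5 without replicate 1 of every group and 3 without replicate 3 of every group. At 48 h, 2 were higher, against 13.5%, and 10 lower, against 14.9%, and without replicate 3 of every group the count of 12 was 7 and without urea 48 h replicate 3 it was 9. Under quantile normalization the higher and lower counts were 1 and 5 at 12 h, 0 and 6 at 24 h, and 0 and 8 at 48 h, and with the same total 2 and 5, 0 and 8, and 0 and 10. From 6 to 48 h the SA minus urea difference was called lower for 6 members, against 4.72% of all genes, namely IAA16, IAA17, IAA19, IAA30, GH3.1 and GH3.2. For GH3.2 most of this change lay in urea, whose mean of log2(value + 1) rose from 4.73 to 6.52. The SA mean of GH3.2 went from 6.69 to 6.13. No member was called with a higher change by limma, against 2.69% of all genes, and 2 were higher at an unadjusted p under 0.05. The count of 6 was 3 without replicate 1 and without replicate 3 of every group, as IAA19, IAA30 and GH3.2 lost their calls. IAA19 and IAA30 were near 0 in SA at 48 h, with means of 0.141 and 0.146.

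Root markers were low in SA. Their summed value was 458 to 1831 over the SA libraries, against 2562 to 4666 in urea, and 7 of 9 were called lower over the 4 times. TIP2;3, EXPA7, COBL9, PLT1 and PLT2 were at 0 in at least 1 SA library. The shoot sum in SA was 78847 to 98406 at 6 h, against 105357 to 116938 in urea, and 84391 to 103527 at 12 h, against 98175 to 105730. It was 63788 to 77538 at 24 h, against 79064 to 91406, and 56132 to 66401 at 48 h, against 51402 to 54401. Over the 4 times 5 of the 9 shoot markers were called lower. The part of root and shoot markers in the SA results was not tested.

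**Figure D3:**
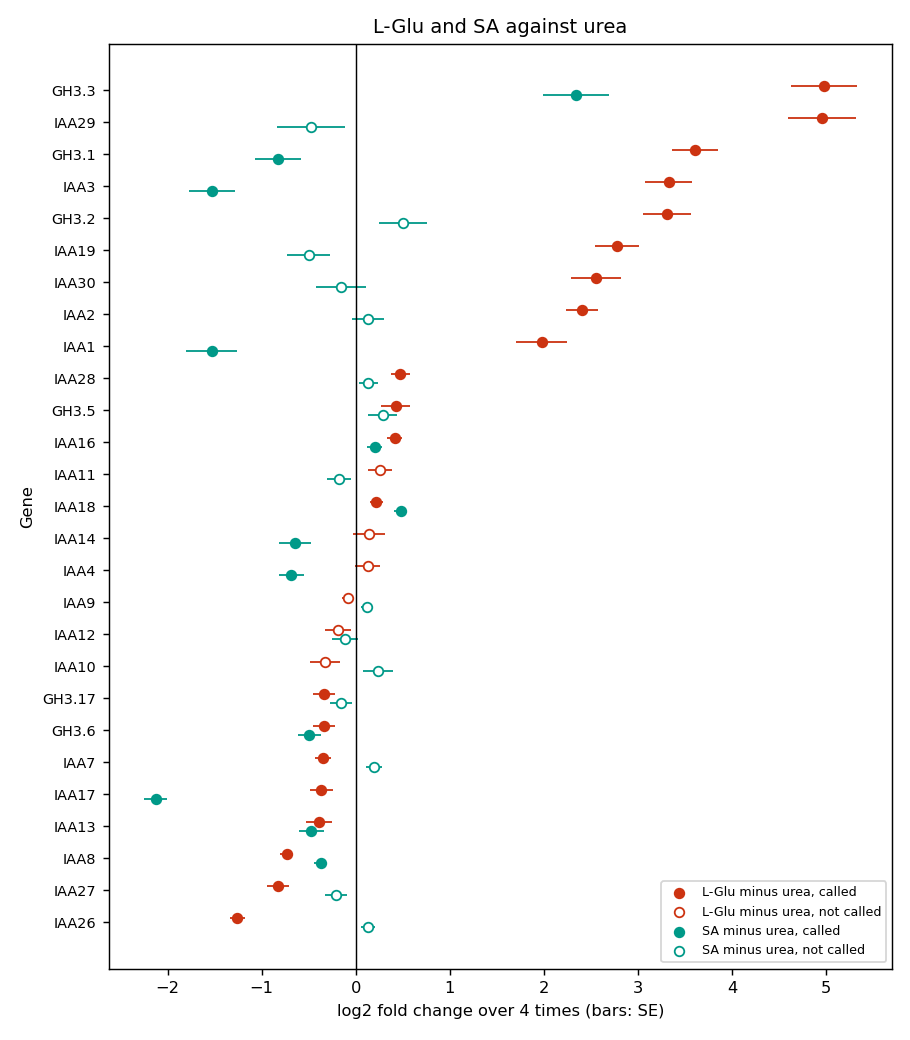
Log2 fold changes of L-Glu and of SA against urea, averaged over the 4 times, for the 27 genes, on the log2(value + 1) scale with SE bars. Filled points passed a limma adjusted p of 0.05. The 9 genes at the top lie at 1.98 or more in L-Glu, while in SA GH3.3, at 2.34, is the highest and IAA17, at -2.12, the lowest.

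L-Glu and SA were also compared directly, at the same times and different doses, from the same fit and the same libraries. Over the 4 times, 15 members were higher in L-Glu, against 37.3% of all genes, and 7 lower, against 35.6%. IAA29 at 5.43 ± 0.363, IAA3 at 4.85 ± 0.246 and GH3.1 at 4.43 ± 0.246 led, with 1 or more SA libraries listed at 0 for IAA29 and for GH3.1, and IAA17 was higher in L-Glu by 1.76 ± 0.122. The lowest was IAA26 at -1.39 ± 0.0777. Brought to the same total, the split was 12 higher and 11 lower, and IAA16 and IAA28 changed sign. At 6 h, 8 were higher, against 17.4%, and 3 lower, against 15.9%, and the count of 11 was 4 without replicate 1 of every group and 10 without L-Glu 6 h replicate 1 or 2. At 12 h, 17 were higher, against 29.1%, and 2 lower, against 23.3%, and with the same total 12 and 6, with quantile normalization 13 and 5. At 24 h, 12 were higher, against 31.7%, and 6 lower, against 30.8%, and with the same total 11 and 13. At 48 h, 13 were higher, against 29.4%, and 7 lower, against 29.6%, and the count of 20 was 13 without replicate 1 of every group and 19 without L-Glu 48 h replicate 2. The split at 48 h with the same total was 11 and 9. GH3.3, GH3.1, GH3.2 and IAA30 were not called between L-Glu and SA at 6 h and were called higher in L-Glu at each later time.

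The urea groups were compared with mock as a background for the other treatments. Of the 27, 4 were higher, against 7.79% of all genes, and 2 lower, against 6.14%. GH3.5 was higher by 1.85 ± 0.245 (adjusted p = 2.97e-06), GH3.2 by 1.51 ± 0.4, GH3.17 by 0.69 ± 0.18 and IAA28 by 0.62 ± 0.159, while IAA7 was lower, at -0.46, and IAA8, at -0.32, the latter not called with quantile normalization or with the same total, which each gave 4 higher and 1 lower. This count of 6 was 3 without mock 0 h replicate 1, and 2 without mock 0 h replicate 3 and without replicate 1 or 3 of every group. Between 6 and 48 h in urea, 3 members were higher, against 7.28%, and 2 lower, against 8.51%. The split was 4 and 2 with quantile normalization and 4 and 1 with the same total. GH3.2 rose by 1.80 ± 0.506 and GH3.5 by 1.196 ± 0.309, and that count of 5 was 3 without urea 6 h replicate 2, without urea 6 h replicate 3 or without urea 48 h replicate 3. It was 1 without replicate 3 of every group, and limma called 0 without replicate 1 of every group, where 5 members had an unadjusted p under 0.05. Against mock, 11 members were higher in L-Glu, against 28.8%, and 6 lower, also against 28.8%, and 6 were higher in SA, against 24.4%, and 4 lower, against 25.9%. The split for L-Glu with the same total was 11 higher and 10 lower. These comparisons share the mock libraries, and GH3.3 was higher than mock by 6.46 ± 0.553 in L-Glu and by 3.82 ± 0.553 in SA.

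Members with like courses could be found from the 13 group means. Among the highest Pearson correlations were those of IAA2 with IAA29 at 0.974, IAA30 with GH3.1 at 0.971, IAA1 with IAA3 at 0.963 and GH3.2 with GH3.3 at 0.938. IAA26 and IAA27 correlated at 0.916, and the lowest value was that of IAA19 with IAA26, at -0.928. The points share libraries and treatments, so these values are a description.

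Among the Aux/IAA genes, 6 form 3 pairs of neighbours that are read in opposite directions, with no protein-coding gene between them. Non-coding genes between them were not looked for. In L-Glu 1 member of each pair rose strongly. IAA3 and IAA17 lie side by side on chromosome 1, IAA2 and IAA7 on chromosome 3, and IAA14 and IAA1 on chromosome 4. At 12 h in L-Glu, IAA3 was higher than in urea by 4.78 and IAA17 by 0.20, IAA2 by 3.94 and IAA7 by 0.92, and IAA1 by 3.27 while IAA14 was at -0.08. Of the second members, IAA7 alone was called at 12 h. In SA over the 4 times, IAA3 and IAA17 were both called lower, as were IAA1 and IAA14, at -1.53 and -0.65, while IAA2 and IAA7 were not called.

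**Figure D4:**
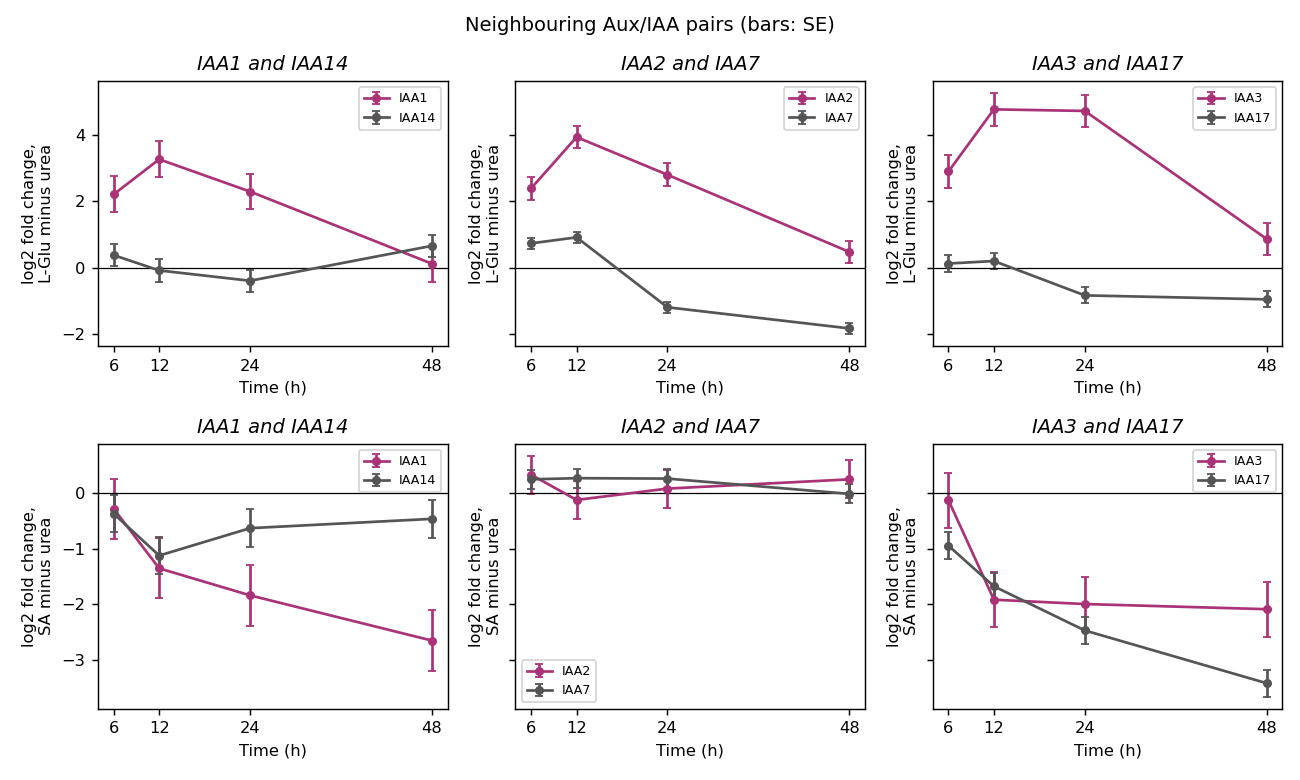
Log2 fold changes of L-Glu (top) and SA (bottom) against urea, on the log2(value + 1) scale with SE bars, for the 3 neighbouring Aux/IAA pairs against time in hours. In L-Glu the purple gene of each pair was higher by 2.22 or more at 6 to 24 h, and its grey neighbour lay between -1.198 and 0.92 at those times.

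The 300 bases before the annotated start are shown for both members of 2 pairs that differ in this way, IAA1 with IAA14 and IAA3 with IAA17. Those of IAA19 and GH3.3, which were highest in L-Glu at 24 h, are also shown. They were read from the TAIR10.1 genome by its RefSeq annotation, in the direction of the gene. Capitals mark TGTCTC, the classical auxin response element, and TGTCGG, a form that ARFs bind well, each on either strand, so that GAGACA and CCGACA are their reverse complements. The IAA1 window is chr4:8360696-8360995 on the plus strand and that of IAA14 chr4:8350264-8350563 on the minus strand. The IAA3 window is chr1:1129690-1129989 on the minus strand and that of IAA17 chr1:1135778-1136077 on the plus strand. The IAA19 window is chr3:5263701-5264000 on the plus strand, and that of GH3.3 chr2:9866563-9866862 on the minus strand.
IAA1: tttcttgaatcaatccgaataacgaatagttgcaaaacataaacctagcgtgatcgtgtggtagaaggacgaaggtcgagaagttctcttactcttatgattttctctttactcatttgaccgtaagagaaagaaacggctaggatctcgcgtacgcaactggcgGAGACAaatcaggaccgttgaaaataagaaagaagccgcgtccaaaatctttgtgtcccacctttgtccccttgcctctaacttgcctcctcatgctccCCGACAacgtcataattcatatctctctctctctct
IAA14: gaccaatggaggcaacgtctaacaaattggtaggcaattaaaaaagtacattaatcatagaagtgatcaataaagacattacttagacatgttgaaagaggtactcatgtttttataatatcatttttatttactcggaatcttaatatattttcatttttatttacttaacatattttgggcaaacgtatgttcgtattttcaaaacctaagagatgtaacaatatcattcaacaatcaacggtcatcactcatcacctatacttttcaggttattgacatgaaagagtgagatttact
IAA3: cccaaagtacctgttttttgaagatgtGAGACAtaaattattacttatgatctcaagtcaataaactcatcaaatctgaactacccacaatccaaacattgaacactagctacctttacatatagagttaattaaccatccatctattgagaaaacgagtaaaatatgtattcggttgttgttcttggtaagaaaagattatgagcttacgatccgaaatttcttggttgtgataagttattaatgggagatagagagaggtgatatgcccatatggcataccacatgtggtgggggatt
IAA17: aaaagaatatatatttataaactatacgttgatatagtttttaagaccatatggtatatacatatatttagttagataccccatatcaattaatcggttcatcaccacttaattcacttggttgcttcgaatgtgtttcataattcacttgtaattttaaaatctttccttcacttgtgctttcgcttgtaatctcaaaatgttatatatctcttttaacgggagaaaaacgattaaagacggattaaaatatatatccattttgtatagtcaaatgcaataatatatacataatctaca
IAA19: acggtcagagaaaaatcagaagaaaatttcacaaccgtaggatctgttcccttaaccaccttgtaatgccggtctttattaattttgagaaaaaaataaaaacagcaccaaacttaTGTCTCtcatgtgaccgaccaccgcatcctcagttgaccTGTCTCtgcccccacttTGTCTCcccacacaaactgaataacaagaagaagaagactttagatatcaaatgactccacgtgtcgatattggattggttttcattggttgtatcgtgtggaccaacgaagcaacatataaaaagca
GH3.3: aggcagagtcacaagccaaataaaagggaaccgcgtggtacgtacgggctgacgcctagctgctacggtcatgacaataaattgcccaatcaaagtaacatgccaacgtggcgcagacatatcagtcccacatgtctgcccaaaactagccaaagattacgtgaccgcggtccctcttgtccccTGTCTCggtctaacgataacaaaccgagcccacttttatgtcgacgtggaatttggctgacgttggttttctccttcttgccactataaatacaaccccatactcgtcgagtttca

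In these windows IAA1 held 1 TGTCTC and 1 TGTCGG, IAA3 1 TGTCTC, IAA19 3 TGTCTC and GH3.3 1 TGTCTC, while IAA14 and IAA17 held neither. Over all members, TGTCTC on either strand was in 9 of 27 windows, 33.3%, against 12.8% of 19886 genes of the table. TGTCGG was in 5 of 27, 18.5%, against 5.34%. TGACG, the core bound by TGA factors of the SA pathway, was in 5 of 27, 18.5%, against 22.1%, and GH3.2 and GH3.3 held 2 each. No matches of these motifs overlapped. IAA2 and IAA29, which rose strongly in L-Glu, held none of the 3 motifs, and neither did IAA7. GH3.1, which also rose, held TGACG only, while IAA30 and GH3.2, which rose too, held 1 TGTCTC each. Of the genes called lower in L-Glu on average, IAA8 held 1 TGTCTC, IAA13 1 TGTCGG and IAA27 1 of each. The other genes called lower, IAA7, IAA17, IAA26, GH3.6 and GH3.17, held neither TGTCTC nor TGTCGG. A match is a description of the letters and not evidence of a bound site.

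Of the 27 genes, 6 overlap another annotated gene and 3 of these overlap one with a value in the table. Whether reads were counted by strand is not stated, and without that the reads of such a gene and its partner cannot be told apart. AT1G04230, which overlaps IAA3, ranged from 21.8 to 80.8 over all libraries and had a difference from urea of 0.82 ± 0.113 in L-Glu, against 3.32 ± 0.246 for IAA3. AT4G28650 overlaps IAA11 and was at -0.80 in L-Glu and -1.93 in SA, and AT4G29070 overlaps IAA27 and was at -0.30 in L-Glu.

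Other genes of the auxin pathway were counted from lists, over the 4 times of L-Glu against urea, beside the 33% of all genes called higher and 36.4% called lower. Of the 6 TIR1/AFB receptor genes, 5 were lower and 1 higher. AFB5 was lower, at -0.83 ± 0.0778, with AFB3 at -0.69 ± 0.0756 and AFB1 at -0.67 ± 0.109, and AFB4 was higher by 0.93 ± 0.108. Of the 5 TOPLESS corepressor genes 4 were lower, TPL itself at -1.02 ± 0.0752, with TPR3 at -0.67, TPR1 at -0.65 and TPR2 at -0.43. Of the 15 ARF genes with a value, 3 were higher and 8 lower. ARF19, an activator in lateral root formation, was higher by 1.40 ± 0.109, and ARF3, ARF4 and ARF8 were lower, at -1.02, -0.96 and -0.89. The receptor and corepressor genes named kept their sign under the 3 other scalings, while with the same total 1 ARF gene was called higher and 12 lower.

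Of 9 auxin synthesis genes 2 were higher and 6 lower. YUC5 and YUC8, flavin monooxygenases of the last step, were higher by 3.77 ± 0.247 and 1.29 ± 0.27. TAA1, the aminotransferase of the step before, was lower, at -2.22 ± 0.108, and YUC2 at -1.32 ± 0.289. Of 9 genes of inactivation and conjugate hydrolysis 6 were higher and 3 lower, and with the same total 3 and 3. UGT74E2, a glucosyltransferase of indole-3-butyric acid, was higher by 7.11 ± 0.4 and the amidohydrolase-like ILL6 by 2.13 ± 0.163, while IAMT1, which methylates auxin, and the glucosyltransferase UGT74D1 were lower, at -1.19 and -0.83. Of 20 transport genes 3 were higher and 13 lower. The auxin transporter gene ABCB4 was higher by 4.23 ± 0.245, the kinase genes PID and WAG2 by 2.50 and 1.08, and the efflux carrier PIN7 was lower, at -1.07.

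The SAUR genes encode small auxin-induced proteins that promote cell expansion, and 12 of 28 listed had a value. In L-Glu 4 of them were higher and 1 lower, with SAUR9 at 4.55 ± 0.298, SAUR78 at 2.03, SAUR41 at 1.67 and SAUR50 at 1.52. The split was 4 and 3 with quantile normalization and with the same total. Of 8 auxin-induced transcription factor genes on the list, the 2 with values were LBD16 and HAT2. Neither was called by limma, and HAT2, at 0.35, was the 1 gene at an unadjusted p under 0.05. Of 4 further GH3 genes on a list 3 were higher, and with the same total 1 was also lower. PBS3, which acts in SA synthesis, was higher by 6.50 ± 0.236, GH3.9 by 1.83 ± 0.205 and GH3.10 by 1.28 ± 0.125.

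In SA against urea the same lists gave other counts, beside the 28.2% of all genes called higher and 29.2% lower. Of 20 transport genes 4 were higher and 14 lower, 2 and 14 with quantile normalization and with the same total, and of 9 synthesis genes 1 was higher and 6 lower. Of the corepressor genes 3 of 5 were higher, and with quantile normalization 2 were higher and 1 lower. Of 6 receptor genes 3 were lower. The ARF genes had 1 higher and 5 lower of 15, those of inactivation and hydrolysis 5 higher and 1 lower of 9, and the SAUR genes 4 higher and 6 lower of 12. Root markers were also lower in the SA libraries, as given above, and their part in these counts was not tested.

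**Figure D5:**
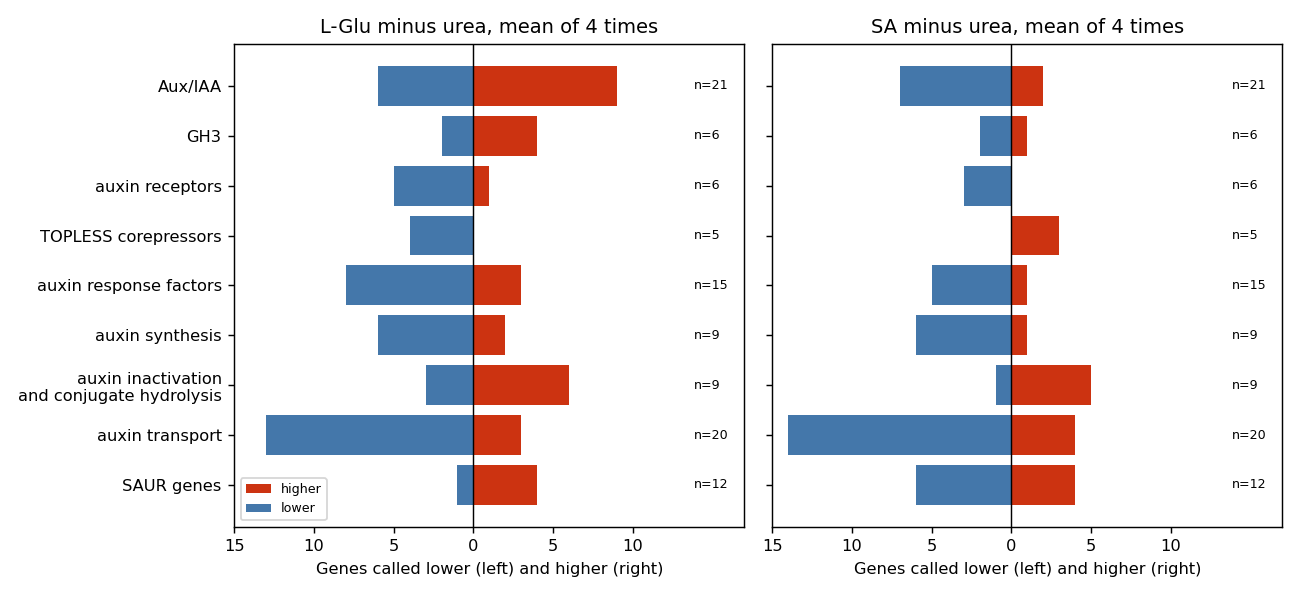
Number of genes called lower (left, blue) and higher (right, red) in L-Glu (left panel) and SA (right panel) against urea over the 4 times, for the Aux/IAA and GH3 genes and 7 other lists of the auxin pathway, with the number of genes measured at the right. Transport genes had 13 lower in L-Glu and 14 lower in SA, and Aux/IAA genes 9 higher in L-Glu and 2 in SA.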

How the data were processed

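RNA of 39 whole-seedling libraries was measured by a high-throughput RNA-Seq method, per the labels' protocols. The authors deposited a normalized expression signal per gene, not counts, whose scaling and strandedness are not given in the sources used here. Per the submitters' processing notes, the genome build was TAIR10 and the tools included edgeR 3.22.3, HTSeq 0.6.0 and TopHat2 2.1.0, with no role given. Depth is unknown, so no counting interval is given.

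The values were taken as log2(value + 1), and genes with a value of 1 or more in at least 3 libraries were kept, which was all 20001. Group means of the 13 groups were fitted in limma 3.58.1 (R 4.3.3) with an intensity trend and 26 residual degrees of freedom, and p-values were adjusted by Benjamini-Hochberg over all genes tested in each of 22 comparisons. The threshold was an adjusted p of 0.05. Log2 fold changes are on the log2(value + 1) scale, which understates the change of low genes. The fitting step was tested on simulated data.

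Groups came from the sample titles. The members, gene lists and tests were chosen with earlier results of these data known. Values per library are given for the 5 highest and 5 lowest members by averaged difference among those called between L-Glu and urea, the 4 highest and 4 lowest in SA against urea, where 3 were called higher, and the 2 highest and 2 lowest changes from 6 to 48 h. Those of further members, the genes whose promoters are printed, and LBD16 and HAT2 were chosen after their values were seen. Other genes come from lists, up to 4 a list by absolute log2 fold change among those called. List genes without a matching name in the reference were left out, among them DAO1 and DAO2 of the inactivation list, which have values.

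Promoter windows, the order of protein-coding genes, and overlaps were read from the RefSeq annotation of TAIR10.1, matched by locus. Alternatives were other pseudocounts, filters, scalings, weights and fits, a replicate block, and leaving out replicates and single libraries. The 4 libraries named as standing apart, and the log2 means of the highest groups, were chosen after the data were seen.

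The rule used for pairing was that every correlation of same-numbered libraries exceed 0.1. It held for 36 of 234 pairs, so the fit has no block. This does not exclude a shared replicate effect, as 35 of 39 libraries correlated best with their own number.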

Additional observations from a re-analysis of the deposited data

Results flagged for a closer look

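The difference between L-Glu and urea was not the same at 6 and 48 h for 14 of the 27 genes, by limma's test of the change itself, as it was for 35.5% of all genes tested. The count was 8 with only the compared groups in the fit and without replicate 3 of every group. On the log2(value + 1) scale the change was -2.097 for IAA1, -1.92 for IAA2, -2.04 for IAA3, -1.59 for IAA4, -2.57 for IAA7, -2.27 for IAA11, -1.08 for IAA17, -1.44 for IAA18, -0.71 for IAA26 and -2.91 for IAA29. It was 2.48 for IAA19, 0.90 for IAA28, 2.57 for GH3.3 and 1.1997 for GH3.17. Every gene of the first set is an Aux/IAA gene, as are 21 of the 27 members.

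From 24 to 48 h the same difference changed for 13 genes, and for 22.6% of all genes. Without replicate 1 of every group the count was 8. The change was -2.18 for IAA1, -2.33 for IAA2, -3.87 for IAA3, -1.85 for IAA11, -1.88 for IAA16, -1.10 for IAA18, -6.18 for IAA29, -3.23 for GH3.1 and -2.88 for GH3.3. It was 0.61 for IAA8, 0.72 for IAA9, 0.91 for IAA26 and 2.26 for GH3.17. The summed values of 9 root markers were higher in every L-Glu library at 48 h than at 24 h, a sum made up mostly of BGLU23, the 1 root marker called in this change. Those of 9 shoot markers were lower, with 3 of the 9 called, and the part of either list in these changes was not tested.

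The difference between SA and urea changed from 6 to 48 h for 6 genes, and for 7.41% of all genes. The count was 3 without replicate 1 and without replicate 3 of every group. The calls of IAA19 and GH3.2 were lost without replicate 1, 2 or 3 of every group, and that of IAA30 without replicate 1 or 3. IAA19 also lost its call with a pseudocount of 4, with quantile normalization and with only the compared groups fitted. GH3.2 lost its call without the intensity trend, while IAA16, IAA17 and GH3.1 kept theirs. The change was -1.73 for IAA16, -2.47 for IAA17, -2.37 for IAA19, -3.68 for IAA30, -4.60 for GH3.1 and -2.36 for GH3.2. That of GH3.2 lay mostly in urea, where its mean of log2(value + 1) rose from 4.73 to 6.52, against 6.69 and 6.13 in SA. GH3.1 was listed at 0 in all 3 SA libraries at 48 h, so its value is a difference on the log2(value + 1) scale and no fold. IAA19 and IAA30 were near 0 in the same libraries, with means of 0.141 and 0.146, and their values are no folds either.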

How the results depend on the processing

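Counts of called members were recomputed under 11 alternatives to each of the 22 comparisons. Of these, 1 moved a count by over 1.5 times: with the compared groups alone in the fit, the change of L-Glu minus urea from 6 to 48 h had 8 calls in place of 14, and the cause was not tested. Counts that moved by 1.5 times were not included. With quantile normalization SA against urea had 6 calls in place of 9 at 24 h and 8 in place of 12 at 48 h. The change of SA minus urea from 6 to 48 h had up to 9 in place of 6. Leaving out replicates or single libraries gave 3 to 10 calls for L-Glu against urea at 6 h, and 16 to 23 over the 4 times. For SA against urea it gave 2 to 7 at 12 h, 3 to 8 at 24 h and 7 to 10 at 48 h. For L-Glu against SA it gave 4 to 10 at 6 h and 13 to 19 at 48 h. It gave 2 to 6 for urea against mock, 0 to 4 for urea from 6 to 48 h, 8 to 14 for the change of L-Glu minus urea both from 6 to 48 h and from 24 to 48 h, and 3 to 7 for that of SA minus urea. These fits have fewer libraries. Among values called in at least 1 of the fits compared, averaged L-Glu minus urea differences changed sign with the same total for IAA4 at -0.38, IAA16 at -0.0923, IAA18 at -0.29, IAA28 at -0.0326 and GH3.5 at -0.0811, and with quantile normalization for IAA16 at -0.28. The same total lowers the L-Glu libraries with the highest sums, and the median of all genes was then -0.53. Over 108 results for single members and 1512 alternative fits, 1372 kept direction and side of the threshold, 60 lost the call, 40 gained one, and the 6 just named changed sign. A further 34 changed sign where neither fit gave a call, IAA11 at -0.23 and IAA14 at -0.34 with the same total among them. The mean correlation of deviations between libraries with the same replicate number was 0.0476, against -0.0238 for other numbers, and 35 of 39 libraries correlated best with their own number, a hint from the data. With a replicate block, 21 members were called in L-Glu against urea and 13 in SA against urea over the 4 times, and no count moved by over 1.5 times. Depth is unknown, so what it limits cannot be given.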
